A study of Homo sapiens with 5 samples.

Results

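The autophagy and mitophagy genes described here are ULK1, BECN1, WIPI1, MAP1LC3B, GABARAP, GABARAPL1, GABARAPL2, SQSTM1, BNIP3L and BNIP3, 10 genes picked by name out of 26364 that the count tables list. Their levels, scaled to library size, were already known across the diets when they were picked. Every level and difference of the 10 is therefore a description without a test.

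The RNA came from tumours of HT-29, an established human colon cancer line, grown under the skin of female NOD SCID mice, a strain that lacks T and B cells. The mice were 5 weeks old, are labelled wild-type for that strain, and all carried the same line. They ate food without methionine, tryptophan and niacin (the combined omission, 1 library), food without tryptophan and niacin (1 library), food without methionine (2 libraries) or normal food (1 library) for 2 weeks, while the study also gives an experimental period of 3 weeks. Nothing in the labels tells whether the 2 methionine-free libraries stem from tumours grown in different mice. The spread that p-values rest on may thus be technical, and a diet with 1 library has no replicate at all. In a bulk tumour, fewer cells of a type and less RNA per cell cannot be told apart.

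Autophagy wraps cytoplasm in a double membrane and delivers it to the lysosome, where amino acids and other building blocks are recovered. The ULK1 kinase starts the process and is held back by mTORC1 when amino acids are plentiful. A lipid kinase complex built around BECN1 then marks the membrane, and small ubiquitin-like proteins of the ATG8 family (LC3 and GABARAP proteins) are attached to it. Cargo receptors such as SQSTM1 bind ATG8 proteins and carry their load in, and BNIP3 and BNIP3L do so for mitochondria (mitophagy). Both mitophagy receptors are known targets of the hypoxia-inducible factors.

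Library totals ran from 433930 counts in the combined omission to 1088084 on normal food, so that 1 count was worth 2.3 CPM (the count scaled to the library total) in the shallowest and 0.919 CPM in the deepest. Markers of colon epithelium summed to between 14200 and 16100 CPM in every library, all 10 present. Markers of red blood cells were at 0 in all libraries, and 4 of 6 fibroblast, 3 of 5 endothelial and 4 of 6 leukocyte markers were at 0, among them COL1A2, COL3A1, VWF and PTPRC. Fibroblast markers summed to 15.6 to 18.1 CPM, endothelial to 0 to 5.51 and leukocyte to 34.6 to 59.7. Such cells of the host are mouse cells, while the counts are of human genes. Human markers at or near 0 therefore do not measure how many host cells a tumour held. Skeletal muscle markers summed to 68.7 CPM in the tryptophan/niacin-free library and to 1.15 to 2.69 CPM in the other libraries, with CKM and MYLPF at 0 throughout, and their part in the results below was not tested. Methionine-free replicate 2 stood apart by transcript length. Against normal food its median log2 difference was 0.48 for the shortest of 4 groups of transcripts (median 1501 bases) and −0.44 for the longest (6716 bases). In methionine-free replicate 1 these medians were 0.13 and −0.10, and in the other libraries they lay within 0.02 of 0. The normal-food and combined-omission libraries carry sample titles of one style and the other 3 libraries titles of another. What goes with the style of title cannot be told apart from diet.

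The highest CPM of a gene over its lowest was 8.49 for WIPI1, which rests on 1 count in its lowest library, 7.97 for BNIP3L and 5.05 for ULK1. ULK1 and BNIP3L were both highest on normal food, next highest in the combined omission, and lower when either methionine or tryptophan and niacin alone were left out. SQSTM1 followed the same division with a smaller difference. Among the ATG8 genes GABARAP and GABARAPL2 stood high in methionine-free replicate 2, GABARAP stood low in the combined omission, and BECN1 varied least of the 9 genes that could be compared. WIPI1 was nearly absent from the combined omission. BNIP3 was barely counted in any tumour.

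**Figure D1:**
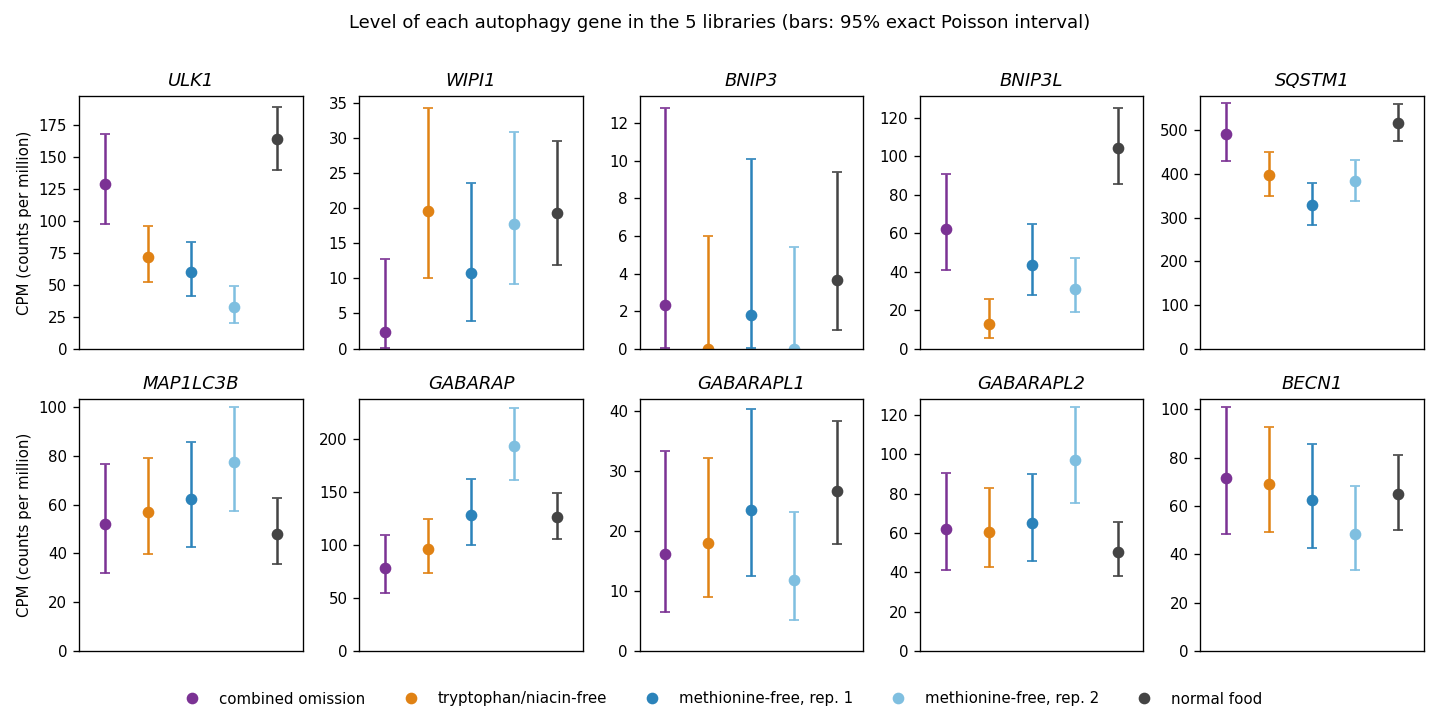
Level of each of the 10 genes in CPM (vertical axis, its own scale in each panel) in the 5 libraries; points are single libraries and bars 95% exact Poisson intervals of the count. ULK1 and BNIP3L stand highest on normal food (164 and 104 CPM), while BNIP3 has at most 4 counts in any library.

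ULK1, the kinase that initiates autophagy, had 129 CPM in the combined omission (95% exact Poisson interval 97.5 to 168), 71.7 in the tryptophan/niacin-free tumour (52.1 to 96.3), 59.6 (41 to 83.7) and 32.4 (20.3 to 49.1) in the methionine-free tumours, and 164 on normal food (140 to 189). The 3 single-omission libraries were the low ones, and their intervals did not reach those of the other 2. In counts, methionine-free replicates 1 and 2 held 33 and 22, where the rate on normal food would have given 90.5 and 111. Over the methionine-free pair the mean was 46 ± 19.2 CPM (SD, n = 2). The TMM-scaled count ratio put ULK1 2.74-fold lower in methionine-free replicate 1 than on normal food (counting interval 1.88 to 4.1) and 4.64-fold lower in replicate 2 (2.97 to 7.59). It was 2.34-fold lower in the tryptophan/niacin-free library than on normal food (1.68 to 3.34). In the combined omission the difference was 1.27-fold with an interval of 0.938 to 1.75, which includes 1. These intervals, and all others here, cover counting error only.

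ULK1 has a long transcript (5310 bases), in the length group that was low in methionine-free replicate 2. With transcript length corrected, its log2 difference between methionine-free and normal food was −1.57, against −1.76 without the correction. In the ordered levels of ULK1 the only neighbours whose counting interval excluded a ratio of 1 were the combined omission and the tryptophan/niacin-free library (1.84-fold, 1.22 to 2.8).

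BECN1, the scaffold of the lipid kinase complex that acts after ULK1, was nearly level. It had 71.4 CPM in the combined omission, 69.3 without tryptophan and niacin, 62.3 and 48.6 without methionine, and 64.8 on normal food. None of its 10 library pairs had a counting interval that excluded 1. Against normal food the interval ran from 0.7 to 1.71 in the combined omission and from 0.527 to 1.26 in methionine-free replicate 2. Differences inside a library's interval could not be seen at this depth.

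WIPI1, which binds the lipid made by the BECN1 complex on the growing membrane, was counted rarely. It had 1 count in the combined omission, 12 in the tryptophan/niacin-free library, 6 and 12 in the methionine-free libraries and 21 on normal food. Scaled to depth this gave 2.3 CPM in the combined omission (0.0583 to 12.8), 19.6 without tryptophan and niacin, 10.8 and 17.7 without methionine, and 19.3 on normal food. The combined omission was the low library, though its interval reached those of the others. At the rate on normal food 8.37 counts would have been expected in it. The ratio to the tryptophan/niacin-free library was 0.121 with an interval of 0.00282 to 0.815, and that to methionine-free replicate 1 was 0.211 with an interval of 0.00459 to 1.74, which includes 1. These values rest on that 1 count.

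The ATG8 genes encode the proteins that coat the membrane and hold the receptors. Per kilobase of transcript, GABARAP (76.1 CPM per kilobase, mean of the 5 libraries) and GABARAPL2 (66.9) were the highest of them, then MAP1LC3B (22.1) and GABARAPL1 (9.81). Together the 4 genes had 209 CPM in the combined omission, 231 without tryptophan and niacin, 279 and 379 without methionine, and 251 on normal food. Methionine-free replicate 2 was the high library.

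GABARAP had 78.4 CPM in the combined omission (54.3 to 109), 96.2 without tryptophan and niacin (73.2 to 124), 128 (100 to 162) and 193 (161 to 229) without methionine, and 126 on normal food (106 to 149). GABARAPL2 had 62.2 CPM in the combined omission, 60.3 without tryptophan and niacin, 65 and 97.3 without methionine, and 50.5 on normal food. In both genes methionine-free replicate 2 lay above replicate 1, by 1.63-fold for GABARAP (1.21 to 2.21) and 1.62-fold for GABARAPL2 (1.07 to 2.51), so the methionine-free pair differed from each other beyond counting error. Both have short transcripts (1634 and 1002 bases). With transcript length corrected, the log2 difference of GABARAPL2 between methionine-free and normal food was 0.34 in place of 0.69, and that of GABARAP 0.20 in place of 0.38. The combined omission was 1.61-fold below normal food in GABARAP (1.1 to 2.42).

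MAP1LC3B, the LC3 gene most used as a marker of autophagosomes, had 51.9 CPM in the combined omission, 57 without tryptophan and niacin, 62.3 and 77.4 without methionine, and 47.8 on normal food. Of its 10 library pairs 1 had an interval that excluded 1, methionine-free replicate 2 against normal food (1.74-fold, 1.16 to 2.61). Values of 0.5 in its counts and in those of its near copy MAP1LC3B2, which had 0.5 to 5 counts, mean that reads of the pair may have been split, so its level is uncertain. BECN1 and SQSTM1 also carry values of 0.5 in some libraries. GABARAPL1 had 16.1 CPM in the combined omission, 17.9 without tryptophan and niacin, 23.5 and 11.8 without methionine, and 26.7 on normal food, and none of its 10 pairs excluded 1. Its near copy GABARAPL3 was at 0 in every library.

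**Figure D2:**
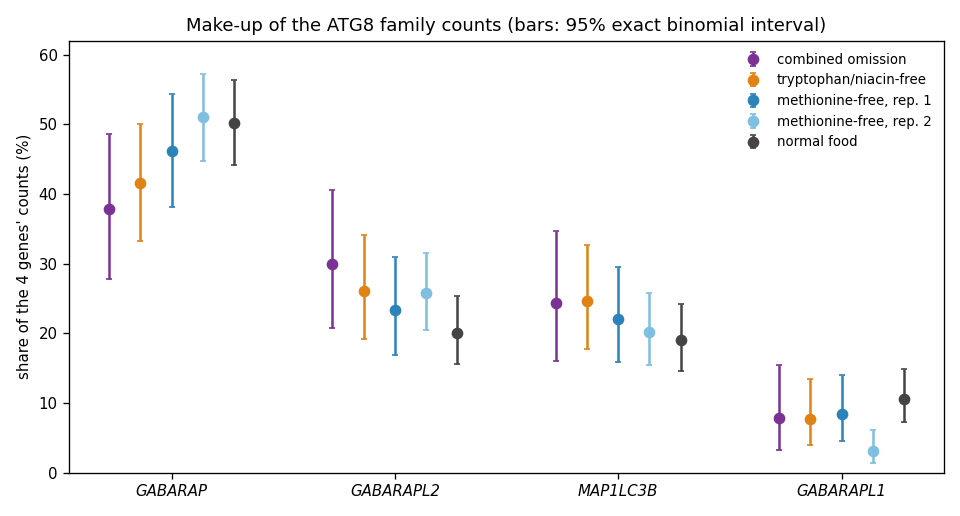
Share of each gene in the summed counts of GABARAP, GABARAPL2, MAP1LC3B and GABARAPL1 (vertical axis, percent), by library; bars are 95% exact binomial intervals. GABARAP made up 37.8% in the combined omission and 50.2% on normal food with overlapping intervals, and GABARAPL1 is lowest in methionine-free replicate 2 (3.11%).

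Within the ATG8 family, GABARAP gave 37.8% of the family's counts in the combined omission (27.8 to 48.6), 41.5% without tryptophan and niacin (33.3 to 50.1), 46.1% and 51% without methionine, and 50.2% on normal food (44.1 to 56.3). GABARAPL1 gave 3.11% in methionine-free replicate 2 (1.35 to 6.04) and 10.6% on normal food (7.23 to 14.9), the pair of shares whose intervals did not meet. In methionine-free replicate 1 its share was 8.44% (4.57 to 14), which overlapped both. The level of GABARAPL1 itself was 2.08-fold lower in methionine-free replicate 2 than on normal food, with an interval of 0.927 to 5.26 that includes 1.

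SQSTM1, also called p62, is the receptor for ubiquitin-tagged cargo and is itself degraded with it. It was the highest member by far, 142 CPM per kilobase as the mean of the 5 libraries and 41.9% to 50.9% of the 10 genes' summed CPM. It had 493 CPM in the combined omission (429 to 564), 398 without tryptophan and niacin (349 to 451), 330 (283 to 380) and 383 (338 to 433) without methionine, and 517 on normal food (475 to 561). The methionine-free pair averaged 356 ± 37.8 CPM (SD, n = 2). The 3 single-omission libraries were the low ones again, 1.34-fold below normal food without tryptophan and niacin (1.15 to 1.56) and 1.57-fold (1.32 to 1.86) and 1.24-fold (1.07 to 1.44) below it without methionine. The combined omission differed from normal food by 1.05-fold, with an interval of 0.897 to 1.24 that includes 1. These counts are of messenger RNA, and the protein's turnover was not measured.

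BNIP3L, also called NIX, spans the outer membrane of mitochondria and links them to ATG8 proteins. It had 62.2 CPM in the combined omission (41 to 90.5), 13 without tryptophan and niacin (5.63 to 25.7), 43.4 (27.8 to 64.5) and 30.9 (19.2 to 47.3) without methionine, and 104 on normal food (85.6 to 125). The tryptophan/niacin-free library was the low one, with 8 counts where the rate on normal food would have given 63.7. BNIP3L was lower than on normal food in every other library, 1.68-fold in the combined omission (1.09 to 2.66) and 2.39-fold (1.53 to 3.88) and 3.08-fold (1.92 to 5.18) without methionine. Of its 10 library pairs 8 had intervals that excluded 1. The 10 pairs share 5 libraries, and the same number over all genes is not given. The combined omission held 4.88-fold more BNIP3L than the tryptophan/niacin-free library (2.16 to 12.4).

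In the ordered levels of BNIP3L, normal food and the combined omission differed beyond counting error, as did methionine-free replicate 2 and the tryptophan/niacin-free library, while the steps between did not.

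The 5 genes closest to BNIP3L in pattern over the 5 libraries were EGLN3, DDIT4, MIR210HG, EFNA1 and TMEM74B, at root mean square distances of 0.122 to 0.23 in centred log2 CPM. EGLN3 and DDIT4 also stand on the hypoxia list used below. EGLN3, an oxygen-sensing prolyl hydroxylase, had 80.7 CPM in the combined omission, 14.7 without tryptophan and niacin, 56 and 41.3 without methionine, and 111 on normal food. Those closest to ULK1 were TNS1, LMNTD2, LINC00174, ANO9 and CEP162 (0.101 to 0.162). Some of these neighbours rest on few counts. LINC00174 had 1.47 CPM in methionine-free replicate 2, where 1 count was worth 1.47 CPM. TMEM74B had 3.26 CPM without tryptophan and niacin, where 1 count was worth 1.63 CPM. TNS1, which ties integrins to actin, had 150 CPM in the combined omission, 88 without tryptophan and niacin, 83.1 and 45.7 without methionine, and 220 on normal food.

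BNIP3, the other mitophagy receptor, had 1 count in the combined omission, 0 in the tryptophan/niacin-free library, 1 and 0 in the methionine-free libraries and 4 on normal food. The exact Poisson intervals of the counts of 0 reach 6.01 CPM without tryptophan and niacin and 5.44 CPM in methionine-free replicate 2. BNIP3 therefore gave no usable difference between diets. BNIP3 lay below BNIP3L in all of the libraries (0.544 against 14 CPM per kilobase, means of the 5 libraries). In the tryptophan/niacin-free library, where BNIP3L had 8 counts (5.63 to 25.7 CPM), the intervals of the 2 genes overlapped.

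The 250 bases before the RefSeq start of BNIP3 and ULK1 are shown because BNIP3 is a known hypoxia target that was hardly counted, while ULK1 differed between diets. Capitals mark every match, on either strand, to ACGTG or GCGTG, the core that hypoxia-inducible factors bind; CACGTG holds an ACGTG on each strand. RefSeq sequences of build GRCh38.p14, 5′ to 3′ on the gene's strand, lie at chr10:131981924-131982173 (minus strand) for BNIP3 and chr12:131894372-131894621 (plus strand) for ULK1.
BNIP3: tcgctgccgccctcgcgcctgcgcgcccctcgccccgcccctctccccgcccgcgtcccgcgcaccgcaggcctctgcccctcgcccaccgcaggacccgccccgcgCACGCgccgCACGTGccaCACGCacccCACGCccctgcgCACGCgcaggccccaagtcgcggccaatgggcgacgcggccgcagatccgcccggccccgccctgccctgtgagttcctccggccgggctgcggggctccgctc
ULK1: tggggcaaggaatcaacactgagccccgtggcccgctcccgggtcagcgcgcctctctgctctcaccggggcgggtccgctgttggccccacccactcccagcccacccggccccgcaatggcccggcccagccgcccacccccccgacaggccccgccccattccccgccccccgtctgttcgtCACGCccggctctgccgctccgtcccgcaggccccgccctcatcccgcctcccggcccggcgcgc

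BNIP3 had 4 matches to GCGTG and 2 to ACGTG, both of these in 1 palindrome, and ULK1 had 1 match to GCGTG. Of 35116 promoter windows of the same length, 32.2% held GCGTG and 18.5% held ACGTG. MAP1LC3B had 4 matches to GCGTG, GABARAP 1, GABARAPL2 1 to each, and WIPI1, SQSTM1, GABARAPL1 and BECN1 none. Sequences matched for 9 of the 10 genes, and BNIP3L was not among them. A match is a description of the letters and not of binding.

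Of the 10 genes 9 passed the filter on low counts and BNIP3 did not. To count differences, a gene was taken as beyond the size rule when it differed at least 2-fold with a counting interval that excluded 1, in every pair of libraries compared. Since the 10 were picked with these comparisons known, the shares of all genes beside the counts are given for scale and nothing is read from them. Between methionine-free and normal food ULK1 and BNIP3L lay beyond the rule, both lower, as did 1.07% of all 10005 genes in that direction. None of the 9 was higher (0.32%), so 2 of 9 lay beyond it in either direction (1.39%). Without methionine-free replicate 1, GABARAPL2 was higher too, 3 members in place of 2. Leaving out a replicate loosens the rule, since fewer library pairs must meet it. The shares of all genes here and below are those with both replicates, and none is given for a replicate left out. Between tryptophan/niacin-free and normal food ULK1 and BNIP3L were again lower (2.51% of all genes) and none was higher (1.01%). Between the combined omission and normal food WIPI1 alone was lower (1.07%) and none was higher (2.02% in either direction). These comparisons share the normal-food library. The median log2 difference of the 9 was −0.34 in the combined omission, −0.41 without tryptophan and niacin and −0.34 without methionine, against −0.01 over all genes in each. Without methionine-free replicate 2 the last of these was −0.16, and without replicate 1 it was −0.27. In each library 6 of the 9 lay below normal food.

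**Figure D3:**
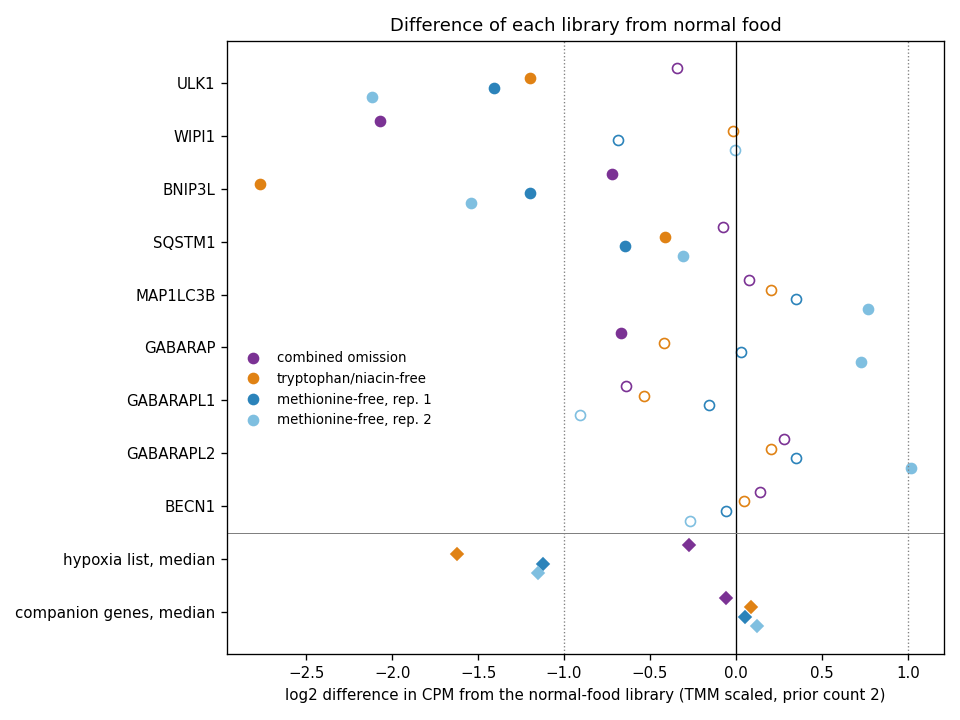
Log2 difference in CPM from the normal-food library (horizontal axis) for 9 genes in the other 4 libraries; filled circles have a 95% counting interval that excludes a ratio of 1, open circles do not, and dotted lines mark 2-fold. Diamonds are medians of the hypoxia list and of the companion genes. BNIP3L reaches −2.77 in the tryptophan/niacin-free library, and ULK1 −2.12 in methionine-free replicate 2.

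ULK1 was higher in the combined omission than in both methionine-free libraries. The ratio was 2.15-fold over replicate 1 (1.37 to 3.41) and 3.64-fold over replicate 2 (2.19 to 6.26). The combined omission differs from the methionine-free and tryptophan/niacin-free libraries in style of title too, which cannot be told apart from diet. Between the combined omission and methionine-free food ULK1 was the only member beyond the size rule (1.07% of all genes were higher). None was lower (0.81%, and 1.88% in either direction). GABARAP was 1.65-fold below methionine-free replicate 1 (1.08 to 2.56) and 2.69-fold below replicate 2 (1.84 to 4.05). Without replicate 1, GABARAP and WIPI1 lay beyond the rule as well, which makes 3 members in place of 1. Between the single omissions, BNIP3L was lower without tryptophan and niacin than without methionine, 3.43-fold against replicate 1 (1.49 to 8.83) and 2.65-fold against replicate 2 (1.13 to 6.93), as 0.65% of all genes were, and no member was higher (0.4%, and 1.05% in either direction). Without replicate 1 GABARAP joined BNIP3L beyond the size rule, 2 members in place of 1. In the combined omission against the tryptophan/niacin-free library, BNIP3L was higher (2.3% of all genes) and WIPI1 lower (1.74%, and 4.04% in either direction). Between the methionine-free libraries themselves 6.6% of all genes lay beyond the rule and none of the 9.

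The diets form a layout in which methionine was left out with tryptophan and niacin absent or present. For ULK1 the methionine step was 0.85 on the log2 scale with them absent and −1.76 with them present. For BNIP3L it was 2.05 with them absent and −1.37 with them present. For BECN1 it was 0.09 with them absent and −0.16 with them present. The steps had opposite directions, with both methionine-free libraries on the same side of normal food, in 6 of the 9 genes and in 41.6% of all genes. The tryptophan/niacin-free and both methionine-free libraries lay below both others in ULK1, BNIP3L and SQSTM1 (3 of 9, with 15.3% of all genes). They lay above both in MAP1LC3B (1 of 9, with 14% of all genes). The division goes by level alone. In ULK1 every pair across it had a counting interval that excluded 1. The combined omission had intervals that include 1 against methionine-free replicate 1 in BNIP3L (0.791 to 2.58) and replicate 2 in SQSTM1 (0.978 to 1.42). In MAP1LC3B its interval against the tryptophan/niacin-free library (0.508 to 1.59) also includes 1. That division is also the one between the styles of sample titles. The difference between the methionine steps, which the interaction of both omissions measures, sets the same libraries against each other. It cannot be told apart from the style of title.

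**Figure D4:**
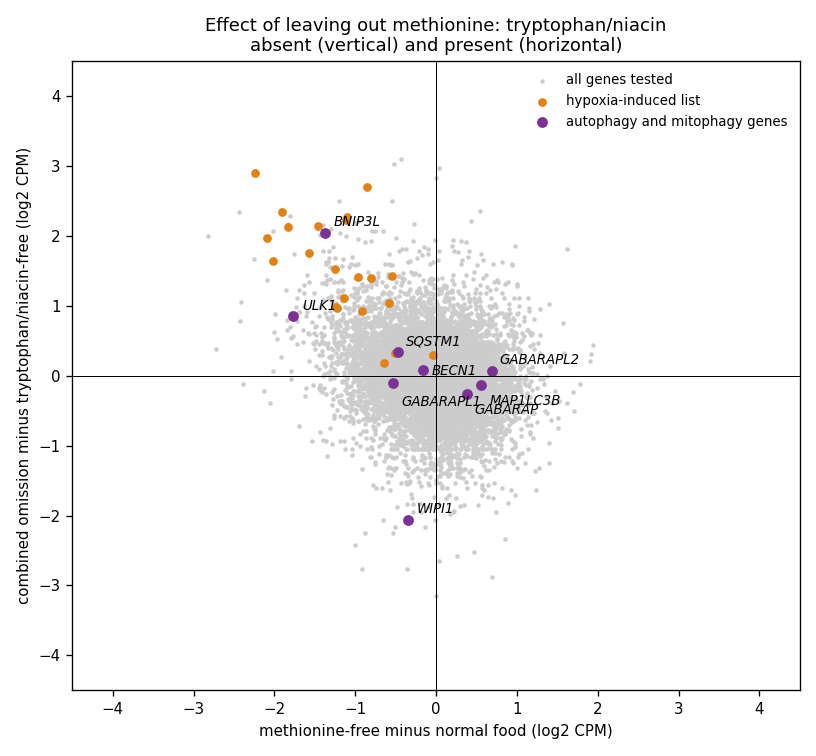
Log2 difference when methionine was left out, with tryptophan and niacin absent (vertical axis, combined omission minus tryptophan/niacin-free) and present (horizontal axis, methionine-free minus normal food). Grey points are all 10005 genes tested, orange the hypoxia list and purple the 9 members. BNIP3L (−1.37 across, 2.05 up) and ULK1 (−1.76, 0.85) lie in the upper left, and WIPI1 (−0.34, −2.06) near the bottom.

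Genes induced by low oxygen differed in the same libraries. Of a list of 22 tested genes without BNIP3L, the median log2 difference from normal food was −0.27 in the combined omission, −1.62 without tryptophan and niacin, and −1.12 and −1.15 in methionine-free replicates 1 and 2. Of these genes 21 were lower in all 3 single-omission libraries than in both others (15.3% of all genes). The styles of sample titles divide the libraries in the same way. By edgeR 6 of the 22 fell in methionine-free tumours against normal food at an adjusted threshold of 0.05 (0.23% of all genes), while DESeq2 called 1 of the 22. This list and those of other autophagy genes below were chosen with earlier results of these data known. The calls on the hypoxia list are therefore description. The part of low oxygen in the differences of BNIP3L and ULK1 was not tested.

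Of 85 other autophagy and lysosome genes, listed by role, 72 were tested, and 6 of the 72 were lower in all 3 single-omission libraries than in both others, as ULK1, BNIP3L and SQSTM1 were (15.3% of all genes). In the opposite direction, as MAP1LC3B was, 16 of the 72 were higher in all 3 than in both others (14% of all genes). By edgeR 0 of the 72 had an adjusted p below 0.05 in methionine-free against normal food, where 0.23% of all genes did (1 at an unadjusted p below 0.05, as 7.68% of all genes; 0 by DESeq2 at either). Likewise 0 passed in the combined omission against methionine-free (0.03% of all genes; 4 unadjusted, 7.59% of all genes), in tryptophan/niacin-free against methionine-free (0% of all genes; 1 unadjusted, 4.91%), and in the interaction of both omissions (0.43% of all genes; 1 unadjusted, 6.45%), and DESeq2 called 0 in each. Their median log2 difference from normal food was −0.06 in the combined omission, 0.09 without tryptophan and niacin and 0.08 without methionine.

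By role, the 3 tested partners of ULK1 in its kinase complex, ATG13, RB1CC1 and ATG101, had medians of −0.13 in the combined omission, 0.15 without tryptophan and niacin and −0.07 without methionine. The partners of BECN1 in the lipid kinase complexes (7 genes) had −0.03, 0.13 and −0.04 in the same order. The genes for membrane source, lipid transfer and lipid binding (8 genes) had −0.03, −0.03 and −0.15. The enzymes that attach and cleave ATG8 proteins (7 genes) had 0.09, 0.27 and 0.31 in that order, and the other cargo receptors (10 genes) −0.16, −0.01 and −0.05. The other mitophagy genes (10 genes) had −0.10, 0.06 and 0.22, and the genes of autophagosome fusion with lysosomes (10 genes) 0.06, 0.09 and 0.05, while lysosomal genes with the TFEB family (17 genes) had −0.11, 0.18 and 0.24.

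The nearest to a call was ATG3, the enzyme that transfers ATG8 proteins to lipid, at 74.1 and 113 CPM without methionine and 50.5 on normal food (log2 fold change 0.97, SE 0.426, edgeR adjusted p = 0.576). ATG2B, a lipid transfer protein, had 37.9 and 8.84 CPM without methionine and 45 on normal food (−0.95, SE 0.489, edgeR adjusted p = 0.663). VAMP8, which fuses autophagosomes with lysosomes, followed (0.79, SE 0.418, edgeR adjusted p = 0.686). It had 72.3 and 122 CPM without methionine and 59.7 on normal food. ATG3, ATG2B and VAMP8 each lay further from normal food in methionine-free replicate 2, the library that stood apart by transcript length. The part of length in these differences was not tested. In the combined omission against methionine-free the smallest p belonged to ATG4B, a protease that trims ATG8 proteins, with 122 CPM in the combined omission and 54.2 and 69.3 without methionine (0.90, SE 0.428, edgeR adjusted p = 0.643). ATG12 (−1.16) and PHB2 (−0.97), an inner-membrane mitophagy receptor, had the same adjusted p. In tryptophan/niacin-free against methionine-free RB1CC1 had 79.9 CPM without tryptophan and niacin and 43.4 and 32.4 without methionine (0.98, SE 0.448, edgeR adjusted p = 0.992), ahead of TEX264 (−0.90) and ATG2B (0.82) at the same adjusted p. In the interaction ATG4B (1.36, SE 0.659, edgeR adjusted p = 0.733), ATG3 (−1.18) and EPG5 (1.28) led.

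Between lone libraries the size rule picked out 3 differences among the 72. MUL1, a mitochondrial ubiquitin ligase, had 48.4 CPM in the combined omission and 16.5 on normal food (ratio interval 1.48 to 5.8), where 0.95% of all genes were higher. ATG12, the ubiquitin-like protein joined to ATG5, had 25.3 CPM in the combined omission and 64.3 on normal food, 2.55-fold lower (1.34 to 5.34), where 1.07% of all genes were lower. The 2 of 72 beyond the rule in that comparison stand beside 2.02% of all genes. ATG4B had 122 CPM in the combined omission and 52.2 without tryptophan and niacin (ratio interval 1.52 to 3.84), where 2.3% of all genes were higher and 4.04% lay beyond the rule in either direction. Between tryptophan/niacin-free and normal food 0 of the 72 lay beyond the rule, against 3.52% of all genes.

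**Figure D5:**
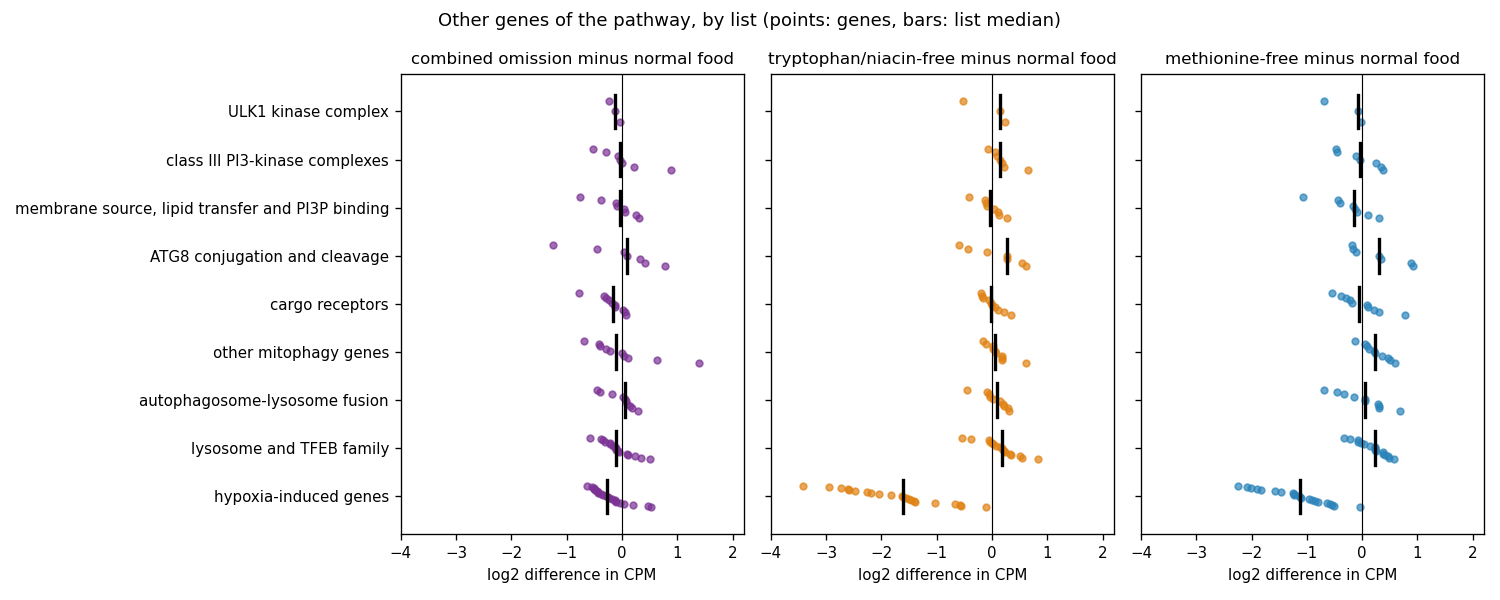
Log2 difference in CPM from normal food (horizontal axis) of other autophagy and lysosome genes and of the hypoxia list, by role; points are genes and bars list medians. The autophagy and lysosome lists have medians between −0.16 and 0.31 in the 3 panels, and the hypoxia list −0.27, −1.62 and −1.13.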

How the data were processed

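Messenger RNA of 5 tumour libraries was sequenced after a stranded library preparation, per the labels' protocols. Build hg19 is named in the submitters' processing notes, which list Subread 2.0.0, featureCounts, SAMtools 0.1.18, TopHat2 2.1.1 and Bowtie2 2.2.8. Annotation, strand setting, treatment of multiply mapped reads and any removal of mouse reads: not given in the sources used here. The deposited tables hold expected counts per gene symbol (15.2% to 17.6% of values above 0 carry decimals), which were rounded to whole numbers for tests. Groups came from the treatment labels. filterByExpr kept 10005 of 26364 genes. edgeR 4.0.16 in R 4.3.3 (TMM, quasi-likelihood F-test, Benjamini-Hochberg over all genes) fitted 1 mean per diet and left 1 residual degree of freedom. Lone libraries were assumed to vary like the 2 methionine-free ones. The median prior degrees of freedom were infinite, so the p-values rested on a spread shared across genes. That spread, as a biological coefficient of variation, was 0.207, and 0.156 with transcript length corrected. Log2 differences used TMM-scaled CPM with a prior count of 2. Exact binomial and Poisson intervals are at 95%. Transcript lengths came from GENCODE and covered 95.8% of tested genes. Scripts were tested on simulated data. Alternatives were DESeq2 1.42.0, other scalings, filters, thresholds and prior counts, a transcript length correction, and leaving out each methionine-free library.

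The members, the lists and the length correction were chosen with earlier results of these data known. The rule for naming other genes took those past the edgeR threshold or the size rule, and otherwise the 3 with the smallest p. Pattern neighbours were the 5 nearest genes of the 2 members with the widest range and at least 50 counts. The minimum of 50 counts held for the members and not for their neighbours.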

Additional observations from a re-analysis of the deposited data

Results flagged for a closer look

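In 6 of the 9 genes the methionine-free libraries both lay on one side of normal food while the combined omission lay on the opposite side of the tryptophan/niacin-free library; 41.6% of all genes did so. The difference between these methionine steps (tryptophan and niacin absent minus present, log2 scale) was 3.42 for BNIP3L, 2.62 for ULK1, 0.82 for SQSTM1, −0.69 for MAP1LC3B, −0.63 for GABARAP and 0.25 for BECN1. As the genes were picked with these values known, the difference was not tested for them. The difference sets normal food and the combined omission against the other libraries, as the styles of sample titles do. Diet and title style cannot be told apart in it.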

How the results depend on the processing

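No paired analysis was possible because the labels give no replicate numbers and only 1 diet has more than 1 library. Without either methionine-free library the fit has no residual degrees of freedom, so those settings give values and no test. The count of 0 other autophagy genes called by edgeR or DESeq2 was the same under all scalings, without the filter and with length corrected. DESeq2 called far fewer of all genes, 1 in methionine-free against normal (edgeR 23), 0 in the combined omission against methionine-free (edgeR 3) and 2 in the interaction (edgeR 43), and the cause was not tested. For the counts at other thresholds and with a library left out, the share of all genes is not given. Nothing about the members is read from changes in those counts. A 3-fold threshold left 0 members in methionine-free against normal, 1 in tryptophan/niacin-free against normal, and 0 in both the combined omission and tryptophan/niacin-free against methionine-free. A 1.5-fold threshold gave 3 members in the combined omission against normal, 2 against methionine-free and 3 against tryptophan/niacin-free. Among the other autophagy genes the 3-fold threshold left 0 in the combined omission against normal and against tryptophan/niacin-free, and the 1.5-fold threshold gave 5 in the combined omission against normal and 1 in tryptophan/niacin-free against normal. Leaving out a methionine-free library gave 2 to 3 members against normal, 1 to 3 in the combined omission and 1 to 2 in tryptophan/niacin-free against methionine-free. The members' median was then −0.27 to −0.16 against normal (−0.34 with both), −0.07 to 0.23 in the combined omission against methionine-free (−0.11 with both) and −0.14 to −0.11 in tryptophan/niacin-free against methionine-free (0 with both). With no filter, which adds BNIP3, these medians were 0.07 and −0.17. The median of the combined omission against methionine-free thus turned its sign without replicate 1 (0.23) and with no filter. It also did so with transcript length corrected (0.03). A prior count of 0.5 put WIPI1 in the combined omission at −2.72 against normal, −2.32 against methionine-free and −2.70 against tryptophan/niacin-free (−2.07, −1.73 and −2.06 with a prior count of 2). Of 270 values of single members under alternatives that keep all libraries 3 changed sign, 0 of them among the 55 that differed at least 2-fold in the reported setting. At these depths WIPI1, GABARAPL1 and BNIP3 could show only large differences.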
